A study of Rattus norvegicus with 17 samples.

Results

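The transcription factors of kidney identity and injury analysed here were 29 genes, of 23487 in the count tables, chosen by symbol from the genes that the study lists as changed transcripts. A gene was taken where its symbol began as one of a fixed set of factor families, such as Hnf, Klf, Fos, Jun, Runx or Fox. Of the 29, 21 were selected from the list of study 1, 6 from the lists of both studies, and Foxm1 and Sox8 from the list of study 2 only. Only part of each list was used, without 2174 entries of study 1 and 5434 of study 2. A gene is called listed below, by 1 study or by both, only on the entries used. Kidney RNA of study 2 was sequenced from 12 rats after sub-total nephrectomy (SNx) and from 5 controls, named NoOp in the sample labels and sham in the paper, 1 library per rat. All were male Wistar Han rats, and neither group carried a transgene or received a drug according to the sources used here. In SNx most of the right kidney was resected and the left kidney removed later, so that a remnant of the right kidney was sampled, at times that differed between rats. The methods set thresholds of serum creatinine and proteinuria for culling, which not all SNx rats of study 2 reached. The libraries are numbered SNx 1 to SNx 12 and NoOp 1 to NoOp 5, and which of the sequenced SNx rats reached the thresholds is not given in the sources used here.

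Study 1 used other rats, so the comparison of SNx with NoOp kidneys below is a test for the 27 members that study 1 lists. Foxm1 and Sox8 were chosen on this very contrast and are given by their values, with no test. The values that placed a gene on a list came from the study's own fits and are not given here. Total counts were 19210434 to 30784070 per library in SNx and 30454170 to 43876369 in NoOp. The methods describe RNA integrity that ranged widely between samples and give no value per library, so its part in the comparison was not tested. Levels are log2 CPM, counts scaled to the library total on a log scale, with TMM factors that correct for library composition and a prior count of 2. Fold changes come from the edgeR fit and are given ± their standard error (SE). They are not corrected for transcript length, so levels are compared between kidneys and not between genes.

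Each nephron segment keeps its function through a small set of factors that hold its genes on. In the proximal tubule the nuclear receptor HNF4A drives genes of transport and metabolism, a programme shared with the liver. After injury, immediate early factors such as those of the AP-1 family (FOS and JUN proteins, which bind DNA as dimers) and ATF3 are switched on within the epithelium, and infiltrating leukocytes bring lineage factors of their own. In RNA of whole tissue, fewer cells of a type and less RNA per cell cannot be told apart.

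The promoters of a pair of AP-1 members, Jund and Fosl1, are shown first because each held a searched motif. The sequences come from RefSeq on the GRCr8 assembly, which gives windows for 15 of the 29 members, 16 in all, and each is printed 5′ to 3′ on the strand of its gene as the 250 bases before the start. Capitals mark the motif. The Jund window (chr16:18769772-18770021, - strand) holds a cyclic AMP response element (CRE, TGACGTCA), found in 1.83% of all windows, and the Fosl1 window (chr1:212183635-212183884, + strand) holds a GC box bound by SP and KLF factors (GGGGCGGGG), found in 9.73%.
Jund: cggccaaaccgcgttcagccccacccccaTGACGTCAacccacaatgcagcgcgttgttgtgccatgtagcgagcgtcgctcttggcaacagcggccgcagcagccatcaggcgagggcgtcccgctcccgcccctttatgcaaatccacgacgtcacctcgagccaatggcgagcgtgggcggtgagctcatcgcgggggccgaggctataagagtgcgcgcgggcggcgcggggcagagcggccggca
Fosl1: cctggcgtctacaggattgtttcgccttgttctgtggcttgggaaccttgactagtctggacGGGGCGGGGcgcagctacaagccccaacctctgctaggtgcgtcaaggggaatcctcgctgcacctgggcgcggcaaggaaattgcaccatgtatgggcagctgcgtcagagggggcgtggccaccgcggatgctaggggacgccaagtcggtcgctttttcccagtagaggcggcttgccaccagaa
No motif overlapped another. None of the 16 member windows held the AP-1 site (TGACTCA or TGAGTCA, 4.63% of all windows) or the HNF4 site CAAAGTCCA (0.391%), which says only that these letters are not in these windows. The counts are per gene, so start sites of a gene cannot be told apart in them.

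The factors of tubular identity were lower in SNx kidneys, and the immediate early, MYC and leukocyte factors were higher. Of the 27 members listed from study 1, 17 were higher and 9 lower at FDR < 0.05, and Klf4 did not pass (edgeR's quasi-likelihood test, Benjamini-Hochberg adjusted over all 15438 tested genes). All 29 members passed the filter on low counts. Calls were common in these kidneys: 58.0% of all tested genes were called, 30.3% higher and 27.7% lower. Among the 1880 tested genes in the entries of study 1 used here the share was 93.6%. Of the called genes 52.2% were higher, and 74.6% with scaling by library size alone, under which 17 members were higher and 8 lower. The members' share of 96.3% is read against that of all listed genes. No overlap between SNx and NoOp libraries was seen in 19 of the 27, and in 21 of all 29 with the untested Foxm1 and Sox8 included. Over all tested genes, which were not chosen as changed, the share was 23.1%. Among 50 other transcription factors that the study lists, 41 had no overlap, so the members are not set apart from listed genes by this count. The median log2 fold change of the 27 was 1.15, beside 0.46 for all tested genes listed from study 1 and 0.02 for all tested genes.

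**Figure D1:**
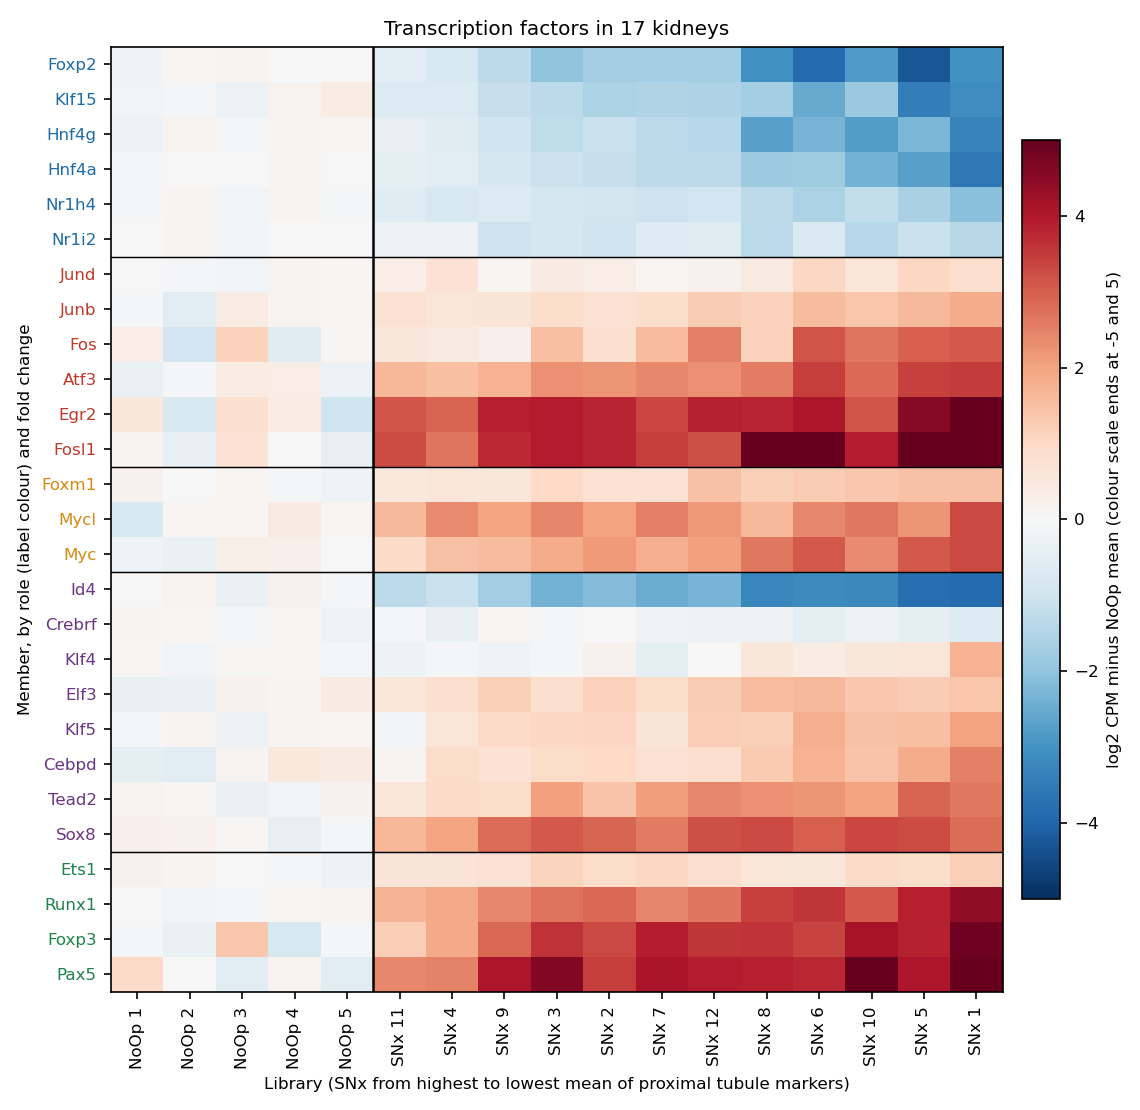
Log2 CPM of the members (rows, grouped by role with the label colour) in the 17 libraries (columns), each minus the mean of the 5 NoOp libraries, with the SNx libraries ordered from the highest to the lowest mean of the proximal tubule markers. The identity factors and Id4 turn deeper blue and most other members deeper red from SNx 11 on the left to SNx 1 on the right.

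Factors of nephron and liver identity. All 7 members of this group were lower in SNx, by 0.85 to 1.87 on the log2 scale (median -1.37), and in each of them every SNx library lay below every NoOp library. Hnf4a (ENSRNOG00000008895, chromosome 3), the nuclear receptor at the centre of the proximal tubule programme, had 10.43, 10.51, 10.49, 10.66 and 10.52 log2 CPM in NoOp 1 to NoOp 5. The SNx libraries reached from 6.93 in SNx 1 over a median of 9.21 to 10.03 in SNx 11. The controls lay within 0.22 log2 units of each other, whereas the SNx kidneys spread over 3.09. Hnf4a fell by 1.37 on the log2 scale (± 0.34 SE, adjusted p = 0.0028 in the edgeR fit). This fold change compares mean counts, and the difference of mean log2 CPM was wider, -1.59. In counts, Hnf4a had 38790 to 62373 per NoOp library and 2549 to 27730 per SNx library.

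Hnf4g (ENSRNOG00000008971, chromosome 2), a close relative of Hnf4a, had 5.11, 5.57, 5.33, 5.55 and 5.47 log2 CPM in NoOp, and 2.05 in SNx 1, a median of 4.04 and 5.0 in SNx 11. It fell by 1.47 (± 0.36 SE, adjusted p = 0.0025), with the same kidneys at both ends as for Hnf4a.

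The nuclear receptors for bile acids and for foreign compounds fell less. Nr1h4 (ENSRNOG00000007197, chromosome 7), which encodes the bile acid receptor FXR, had 6.49, 6.74, 6.47, 6.73 and 6.51 log2 CPM in NoOp and 4.49 to 6.0 in SNx with a median of 5.61. It fell by 1.09 (± 0.18 SE, adjusted p = 0.00011). Nr1i2 (ENSRNOG00000002906, chromosome 11), which encodes the xenobiotic receptor PXR, had 4.89, 5.02, 4.75, 4.85 and 4.84 in NoOp and 3.46 to 4.61 in SNx with a median of 3.94. It fell by 0.85 (± 0.17 SE, adjusted p = 0.00050), the smallest fall of the group. Slc51a, a bile acid exporter under the control of FXR, was the only gene of 10 known bile acid and xenobiotic receptor targets that could be identified, and it fell by 1.45 (± 0.49 SE, adjusted p = 0.018).

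Klf15 (ENSRNOG00000017808, chromosome 4), a Krüppel-like factor that responds to glucocorticoids and controls amino acid and lipid metabolism, had 7.01, 7.04, 6.85, 7.35 and 7.52 log2 CPM in NoOp. The SNx libraries lay between 3.71 in SNx 5 and 6.48 in SNx 4 with a median of 5.60. It fell by 1.57 (± 0.33 SE, adjusted p = 0.00078). The largest fall of the group was that of Foxp2 (ENSRNOG00000054508, chromosome 4), a forkhead repressor, at 1.87 (± 0.43 SE, adjusted p = 0.0016). Foxp2 had 3.47, 3.81, 3.82, 3.70 and 3.67 in NoOp and from -0.59 in SNx 5 over a median of 1.83 to 3.12 in SNx 11, that is 14 counts in the lowest SNx library. The kidney closest to the controls and the one farthest from them thus differed more in Foxp2 than the group means did.

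Genes known to depend on these factors are given beside them. Only genes in the entries used here had a known symbol, mostly from study 1. Counts over such lists thus describe genes already listed as changed and carry a background of 93.6% called. Genes listed by study 2 alone were chosen on this same contrast, so their direction in any such count is no test. Of 22 genes of the liver and proximal tubule programme, known targets of HNF4A among them, 20 could be identified and 14 were lower, 2 higher and 4 not called, with a median log2 fold change of -1.50. Cyp8b1, an enzyme of bile acid synthesis, fell by 3.84 (adjusted p = 0.00023) and Pklr, the liver form of pyruvate kinase, fell by 1.57 (adjusted p = 0.00094). Fgb, which encodes fibrinogen beta, went the other way and rose by 3.93 (± 0.34 SE, adjusted p = 2.5e-07), with SNx libraries at 2.54 to 3.94 log2 CPM. Of 20 proximal tubule markers 18 could be identified, and 15 were lower, 1 higher and 2 not called. Aqp1, the water channel, fell by 1.69 and the endocytic receptor Cubn by 0.81. The summed level of the 18 markers, 1 of them listed by study 2 alone, was 14.66 to 14.94 log2 CPM in NoOp and 10.94 to 14.24 in SNx. Falls were not limited to proximal markers. Of 15 distal nephron and collecting duct markers 5 could be identified, and 4 were lower and 1 higher, with a median log2 fold change of -0.72. Atp6v0a4 fell by 0.89 and Trpv5 rose by 1.52.

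AP-1, ATF and immediate early factors. All 6 members were higher in SNx, and in Fosl1, Egr2, Atf3 and Junb every SNx library lay above every control. Fosl1 (ENSRNOG00000020552, chromosome 1), which encodes the AP-1 subunit FRA1, went from almost no counts to clear expression. It had 1, 0, 3, 1 and 0 counts in NoOp 1 to NoOp 5 and 16 in SNx 4 to 115 in SNx 1. In CPM summed over each group, 2.06 in SNx stood against 0.0287 in NoOp, a ratio of 71.6 (95% interval 30.5 to 221, exact, which covers counting error only). With so few control counts the fitted log2 fold change of 5.85 (± 0.81 SE, adjusted p = 2.2e-05) depends on the prior count, and without NoOp 3, which held 3 of the 5 counts, it was 6.65.

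Egr2 (ENSRNOG00000000640, chromosome 20), a zinc finger factor of the early response, had 0.19, -1.13, 0.40, -0.03 and -1.36 log2 CPM in NoOp. The SNx libraries lay between 2.54 in SNx 4 and 5.06 in SNx 1 with a median of 3.44, and its log2 fold change was 3.93 (± 0.47 SE, adjusted p = 5.9e-06). Atf3 (ENSRNOG00000003745, chromosome 13), a stress-induced partner of AP-1 proteins, had 1.49, 1.73, 2.19, 2.14 and 1.52 in NoOp and 3.32 to 5.31 in SNx with a median of 4.15. It rose by 2.63 (± 0.36 SE, adjusted p = 2.3e-05), and the lowest remnant kidney was above the highest control by more than the range of the controls.

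Junb, Jund and Fos had smaller fold changes. Junb (ENSRNOG00000042838, chromosome 19) had 6.53, 6.07, 6.96, 6.74 and 6.69 log2 CPM in NoOp and 7.22 to 8.45 in SNx with a median of 7.62, a log2 fold change of 1.15 (± 0.22 SE, adjusted p = 0.00034). Jund (ENSRNOG00000019568, chromosome 16), the JUN protein of resting cells, had 7.95, 7.89, 7.81, 8.09 and 8.08 in NoOp and 8.05 to 9.01 in SNx with a median of 8.4, a log2 fold change of 0.55 (± 0.16 SE, adjusted p = 0.0070). In Jund 10 of 12 SNx libraries were above all controls. Fos (ENSRNOG00000008015, chromosome 6), the founding member of the family, was the most scattered of the group among controls, at 2.92, 1.65, 3.75, 1.97 and 2.65, and lay between 2.84 in SNx 9 and 5.73 in SNx 6 with a median of 4.13. It rose by 1.91 (± 0.56 SE, adjusted p = 0.0080), with 7 of 12 SNx libraries above every control. Among other immediate early genes 11 of 18 could be identified and all 11 were higher (median 1.36 on the log2 scale), and Socs3, an inhibitor of cytokine signalling, rose by 3.34 (adjusted p = 1.1e-05). Of 14 known AP-1 targets 13 could be identified and 13 were higher without overlap, among them Cd44, a receptor for hyaluronan, at 2.76, and Timp1, an inhibitor of matrix proteases, at 2.93. Groups did not overlap in 23.1% of all tested genes and in 41 of 50 other listed transcription factors.

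**Figure D2:**
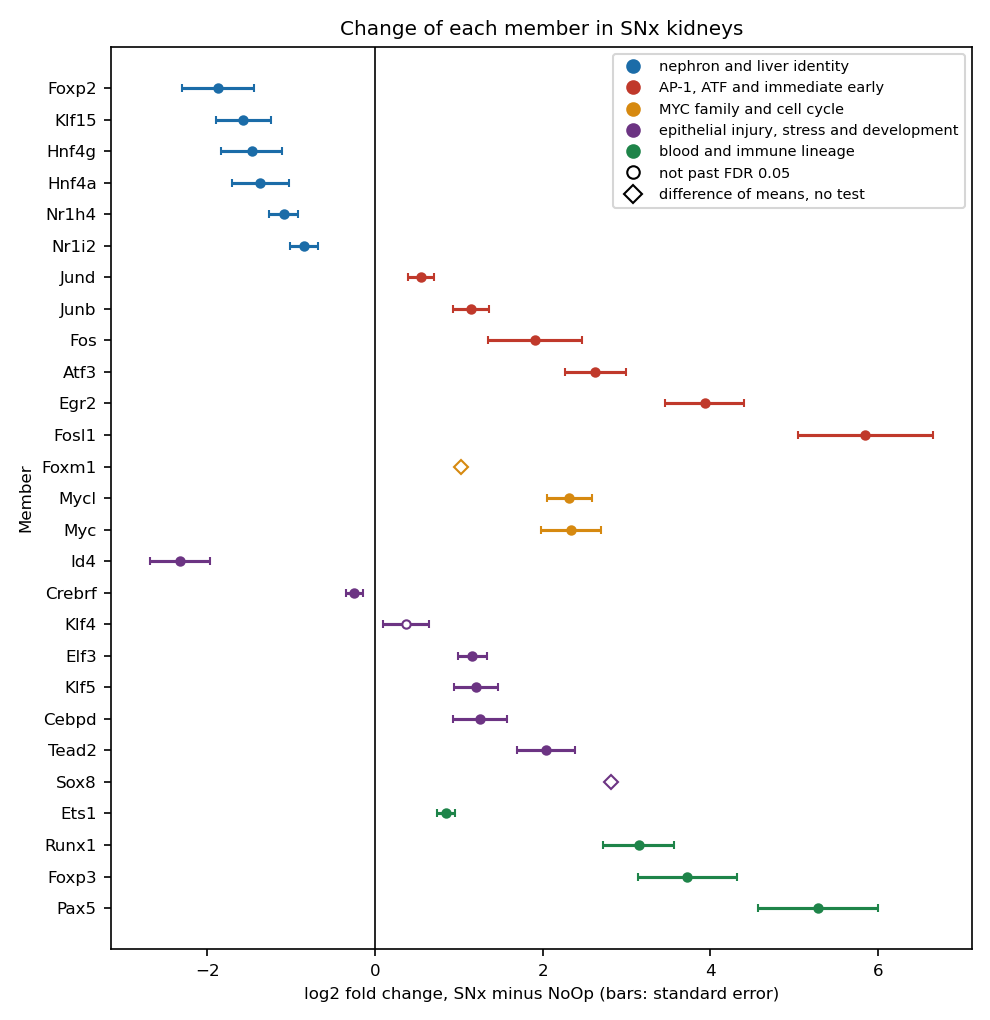
Log2 fold change of each member, SNx minus NoOp, with its standard error (12 and 5 libraries), coloured by role. Filled circles passed FDR 0.05, the open circle (Klf4) did not, and the open diamonds give the difference of mean log2 CPM of Foxm1 and Sox8, which were not tested. The identity factors and Id4 lie between -2.32 and -0.85, and Fosl1 lies farthest to the right at 5.85.

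MYC family and cell cycle. Myc (ENSRNOG00000004500, chromosome 7), the growth factor-responsive regulator of ribosome and metabolic genes, had 3.33, 3.17, 3.79, 3.78 and 3.47 log2 CPM in NoOp and 4.46 in SNx 11 to 6.82 in SNx 1 with a median of 5.60. It rose by 2.33 (± 0.36 SE, adjusted p = 5.9e-05). Mycl (ENSRNOG00000014259, chromosome 5), its relative, had 0.55, 1.42, 1.41, 1.76 and 1.43 in NoOp and 2.92 to 4.62 in SNx with a median of 3.60, and rose by 2.32 (± 0.27 SE, adjusted p = 4.5e-06). Neither overlapped between the groups. Foxm1 (ENSRNOG00000005936, chromosome 4), the forkhead factor that drives genes of mitosis, had 2.76, 2.58, 2.65, 2.45 and 2.36 in NoOp and 3.07 to 4.04 in SNx with a median of 3.67. Of 22 genes of proliferation, FOXM1 targets included, 20 could be identified, 1 of them listed by study 2 alone, and 20 were higher with a median log2 fold change of 2.46. Top2a, a topoisomerase of dividing cells, rose by 2.79 and Kif20a, a kinesin of cell division, by 2.60.

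Epithelial injury, stress and development. This group went both ways. Of its 7 members listed from study 1, 4 were higher, 2 lower and 1 not called. Id4 (ENSRNOG00000016099, chromosome 17), an inhibitor of basic helix-loop-helix factors, had the largest fall of all 29 members. It had 6.28, 6.48, 5.98, 6.50 and 6.24 log2 CPM in NoOp and 2.46 in SNx 1 to 5.18 in SNx 4 with a median of 3.88. It fell by 2.32 (± 0.36 SE, adjusted p = 6.3e-05), and no remnant kidney came within the range of the controls. Crebrf (ENSRNOG00000020769, chromosome 10), a regulator of the CREB3 stress factors, had 6.57, 6.55, 6.4, 6.51 and 6.24 in NoOp and 5.78 in SNx 1 to 6.49 in SNx 9 with a median of 6.21. It fell by 0.24 (± 0.10 SE, adjusted p = 0.0496), at the edge of the threshold and with groups that overlapped. Scaled by library size alone, Crebrf was at -0.04 (adjusted p = 0.73).

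Elf3, Klf5 and Cebpd rose by 1.16 to 1.26. Elf3 (ENSRNOG00000006330, chromosome 13), an ETS factor restricted to epithelia, had 5.59, 5.63, 6.18, 6.11 and 6.37 log2 CPM in NoOp and 6.59 to 7.6 in SNx with a median of 7.20, a log2 fold change of 1.16 (± 0.17 SE, adjusted p = 4.4e-05). Klf5 (ENSRNOG00000008785, chromosome 15), normally a factor of the collecting duct, had 3.09, 3.26, 2.84, 3.27 and 3.24 in NoOp and 3.0 in SNx 11 to 5.15 in SNx 1 with a median of 4.27, a log2 fold change of 1.21 (± 0.26 SE, adjusted p = 0.0010). Klf5 lay above every control in 11 of 12 SNx libraries, and the exception was SNx 11. Cebpd (ENSRNOG00000050869, chromosome 11), a factor of the acute phase, had 3.80, 3.72, 4.39, 4.78 and 4.66 in NoOp and 4.42 to 6.8 in SNx with a median of 5.21, a log2 fold change of 1.26 (± 0.33 SE, adjusted p = 0.0038), and SNx 11 was again the only library within the controls' range. Tead2 (ENSRNOG00000020695, chromosome 1), a DNA-binding partner of YAP, had 1.68, 1.56, 1.15, 1.37 and 1.73 in NoOp and 2.10 to 4.41 in SNx with a median of 3.56 and no overlap, and rose by 2.04 (± 0.35 SE, adjusted p = 0.00015). Of 12 TEAD and YAP targets 3 could be identified, and all 3 were higher, Axl by 2.27, Tgfb2 by 2.13 and Ankrd1 by 1.08.

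Klf4 (ENSRNOG00000016299, chromosome 5), a factor of epithelial differentiation and cell cycle arrest, was the single member that did not pass. It had 5.21, 5.05, 5.24, 5.24 and 5.10 log2 CPM in NoOp, while the SNx libraries reached from 4.71 in SNx 7 over a median of 5.27 to 6.91 in SNx 1. Of these, 6 lay above all controls and 3 below all. The log2 fold change was 0.37 (± 0.28 SE, adjusted p = 0.26), and 0.15 without SNx 1. The SD was 0.59 in SNx and 0.09 in NoOp, so the level scattered in remnant kidneys more than its mean moved. Sox8 (ENSRNOG00000018841, chromosome 10), a SOX factor of neural crest and glia, had 6 to 8 counts per NoOp library and 19 to 77 per SNx library, that is -2.12 to -1.48 log2 CPM in NoOp and -0.06 to 1.61 in SNx with a median of 1.22, without overlap. Of 16 markers of injured tubule 14 could be identified, of which 13 were higher and 1 lower, and Clu, a chaperone secreted by injured tubules, rose by 3.83 (adjusted p = 4.3e-07).

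Blood and immune lineage factors. All 5 members were higher. Runx1 (ENSRNOG00000001704, chromosome 11), a regulator of haematopoiesis that injured epithelium can also express, had 2.28, 2.11, 2.14, 2.37 and 2.39 log2 CPM in NoOp and 3.95 in SNx 11 to 6.69 in SNx 1 with a median of 5.04. It rose by 3.15 (± 0.42 SE, adjusted p = 1.7e-05). Ets1 (ENSRNOG00000008941, chromosome 8), an ETS factor of lymphocytes and endothelium, had 6.78, 6.68, 6.53, 6.51 and 6.30 in NoOp and 7.13 to 7.75 in SNx with a median of 7.42, the narrowest SNx spread of all 29 members (SD 0.20, n = 12). Its log2 fold change was 0.85 (± 0.11 SE, adjusted p = 1.2e-05), and every remnant kidney was above every control.

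Pax5 (ENSRNOG00000024729, chromosome 5), the factor that fixes the B cell lineage, had 4, 1, 0, 2 and 0 counts in the controls and 11 in SNx 11 to 98 in SNx 10. The ratio of summed CPM was 48.9 (95% interval 23.6 to 122, exact, counting error only), with a fitted log2 fold change of 5.28 (± 0.71 SE, adjusted p = 1.8e-05) that was 6.12 without NoOp 1. Foxp3 (ENSRNOG00000011702, chromosome X), the factor of regulatory T cells, had 5, 4, 20, 3 and 5 counts in NoOp and 12 in SNx 11 to 160 in SNx 1, a log2 fold change of 3.73 (± 0.59 SE, adjusted p = 8.2e-05) that was 4.46 without NoOp 3. NoOp 3 thus held most control counts of Foxp3, and SNx 11 lay within the controls' range.

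Markers of the cells in which these lineage factors are known were also higher in SNx, and their relation to the factors across kidneys was not tested. Of 11 B cell markers 7 could be identified and all 7 were higher, Cd79b, a part of the B cell receptor, by 3.96 (± 0.45 SE) and Cd22 by 3.17 (± 0.28 SE), and the summed level of the 7 was 5.94 to 7.56 log2 CPM in SNx and 5.32 to 5.60 in NoOp. All 10 identified T cell markers of 15 were higher, with a summed level of 6.72 to 7.55 against 4.93 to 5.64. Of these 10, 4 were listed by study 2 alone and so were chosen on this contrast. The only identified regulatory T cell marker of 6, Tnfrsf9, rose by 1.39. For macrophages 12 of 13 markers were identified, 1 of them from study 2 alone, and 12 were higher, with a summed level of 8.19 to 9.65 against 6.89 to 7.48, and Trem2, a receptor of macrophages, rose by 3.69. Ptpro, the only identified podocyte marker of 10 and listed by study 2 alone, lay at 4.65 to 5.84 log2 CPM in SNx and 6.27 to 6.75 in NoOp. In all these lists a gene counted as identified only if it had a known symbol, passed the filter on low counts and was not itself a member. The part of cell numbers in the members' changes was not tested. Markers of urothelium, which a dissected kidney can hold, gave 3 higher and 2 not called of the 5 identified, with a summed level of 0.23 to 7.41 in SNx and 1.33 to 4.21 in NoOp.

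**Figure D3:**
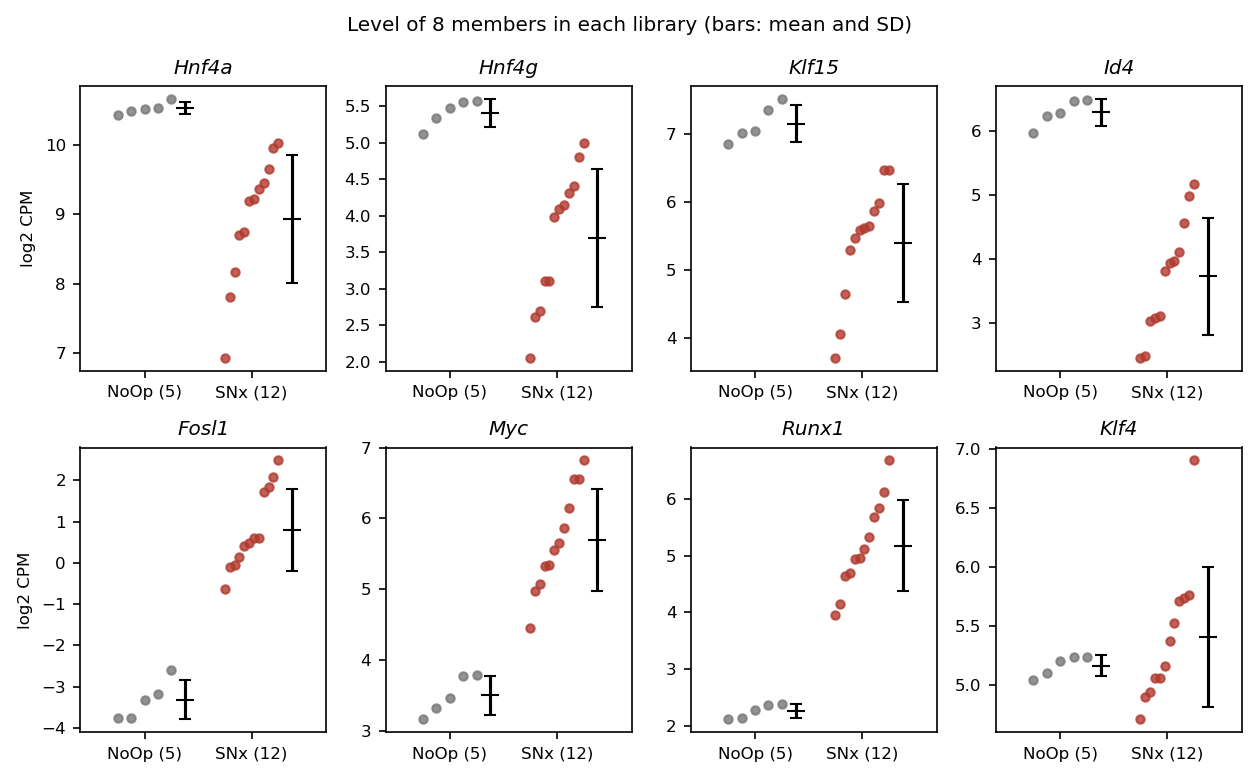
Log2 CPM of 8 members in each of the 5 NoOp (grey) and 12 SNx (red) libraries, spread sideways in order of value, with the mean and SD beside them and a separate axis for each gene. Hnf4a, Hnf4g, Klf15 and Id4 lie below and Fosl1, Myc and Runx1 above all controls in 12 of 12 SNx libraries, whereas the SNx values of Klf4 lie on both sides of the controls.

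The members varied far more among remnant kidneys than among controls. In 27 of the 29 the SNx libraries had the larger SD, the exceptions being Egr2 and Elf3, and the same held for 81.9% of all tested genes. The median SD of the members was 0.63 log2 CPM in SNx and 0.21 in NoOp, beside 0.29 and 0.17 over all tested genes. The latter were not chosen as changed, so this wider spread is not shown to be particular to the members. The same kidneys stood at the ends. Of the 17 higher members listed from study 1, SNx 1 was farthest from the controls in 12 and SNx 11 nearest in 9, and of the 9 lower members SNx 1 was farthest in 6 and SNx 11 nearest in 6. How often these libraries stood at the ends over all tested genes was not counted, so this order is not shown to be particular to the members.

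This order was set beside the level of proximal tubule markers. The mean log2 CPM of the 18 identified proximal tubule markers, none of them a member, ranged in SNx from 4.99 in SNx 1 over a median of 8.02 to 8.61 in SNx 11, and in NoOp from 8.80 to 9.31. Across the 12 SNx libraries, 9 members correlated with this mean positively and 14 negatively at an adjusted p under the threshold for both Pearson's r and Spearman's rho (permutation tests with 100000 resamples, Benjamini-Hochberg adjusted over 66 relations). Among 15378 other tested genes, 36.3% had an r and a rho at least as large as the weakest of these 23 members. The median size of r was 0.82 for members and 0.62 for those genes. Unlike the members, those genes were not chosen as changed, and the share among listed genes was not counted. The relations are thus not shown to be particular to the members. The strongest relation was that of Hnf4a, with r = 0.98 and rho = 0.99 (adjusted p = 9.4e-05 and 0.00016, permutation tests, n = 12). Without SNx 1 and SNx 5, the libraries farthest from the median, r was 0.96. Hnf4g and Nr1h4 had r of 0.96 and 0.95, Id4 0.92 and Klf15 0.88. On the negative side Cebpd had r = -0.94 and rho = -0.85, Klf4 r = -0.93 and rho = -0.85, Junb r = -0.93 and rho = -0.96, and Runx1 r = -0.92 and rho = -0.92. Klf4, whose mean did not pass the test between groups, was thus among the members with the largest r inside SNx. Ets1, Sox8, Mycl, Pax5, Jund and Egr2 did not pass for both measures. The r of Ets1 was -0.33, and that of Egr2 moved from -0.71 to -0.18 without SNx 1 and SNx 5.

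Depth moved with this order. The proximal tubule mean correlated with the log2 total counts of the SNx libraries (r = 0.76, p = 0.0043, rho = 0.66, p = 0.025, permutation tests, n = 12), and its part in the relations was not tested. The members' own r with log2 total counts was between -0.81 and 0.71, with a median size of 0.60, and in 0 of 29 members did it exceed in size the r with the proximal tubule mean. Depth and this mean were themselves correlated, so that count cannot tell their parts in the relations apart. The library numbers in the labels fall into a lower range (SNx 1 to SNx 6 and all NoOp) and a higher range (SNx 7 to SNx 12), and all 29 relations past the threshold, those below included, had the same sign within both ranges. Hnf4a had r = 0.98 in the lower and 0.97 in the higher range. The relation with Crebrf (r = 0.49, p = 0.15) no longer held in a permutation test without SNx 1 and SNx 5. Its call was also lost without SNx 3, SNx 6, SNx 7 or SNx 11 alone, so it did not hang on those libraries in particular.

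**Figure D4:**
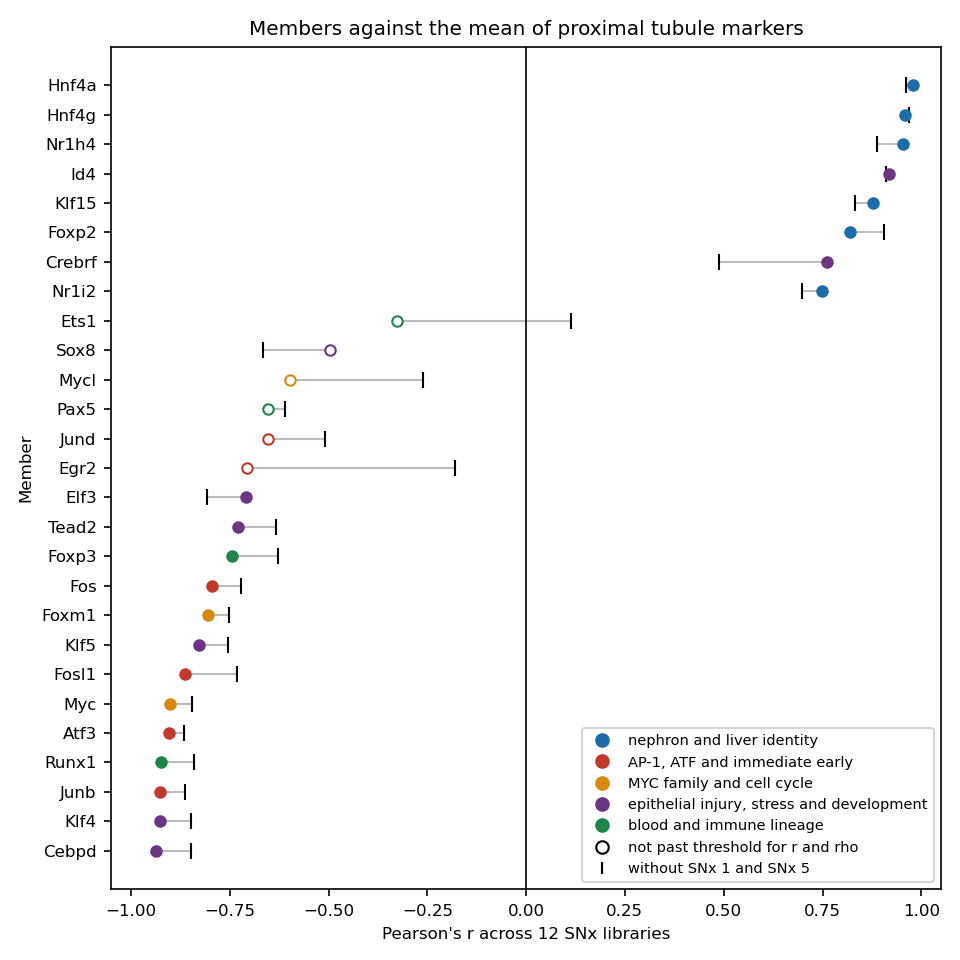
Pearson's r of each member with the mean log2 CPM of 18 proximal tubule markers across the 12 SNx libraries (circles, coloured by role, filled where r and rho passed the threshold) and again without SNx 1 and SNx 5 (vertical ticks). Hnf4a lies at 0.98 and Cebpd at -0.94, and the ticks of Egr2, Ets1, Mycl and Crebrf lie far from their circles.

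With the mean of 13 fibroblast and matrix markers, which was 6.72 to 9.02 in SNx and 5.25 to 5.53 in NoOp, only Ets1 and Mycl passed for both measures. Of the other tested genes, which were not chosen as changed, 2.22% had an r and a rho of at least the smaller of their values. Ets1 had r = 0.78 and rho = 0.76 (adjusted p = 0.0012 and 0.015, permutation tests, n = 12), and r = 0.75 without SNx 1 and SNx 8, the libraries farthest from the median. Its call was lost without SNx 1 (r = 0.76, larger adjusted p of r and rho 0.062, permutation tests) and without SNx 3 (r = 0.82, larger adjusted p 0.057). Mycl had r = 0.81 and rho = 0.68 (adjusted p = 0.011 and 0.042, same tests), but r = 0.30 without SNx 1 and SNx 8 (p = 0.40, permutation test). Its call was also lost without SNx 3, SNx 9 or SNx 11 alone. Both means were themselves related less closely (r = -0.53, p = 0.067, rho = -0.41, p = 0.19, permutation tests, n = 12).

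Related factors were compared within each library, as the difference of their log2 CPM, which does not depend on how libraries are scaled. This asks whether the balance of a pair changed, over 8 pairs with two-sided exact permutation tests of all 6188 splits and Benjamini-Hochberg adjustment. Klf15 minus Klf5, a metabolic against an epithelial member of the Krüppel-like family, was 4.01 ± 0.18 in NoOp (SD, n = 5) and 1.15 ± 1.38 in SNx (SD, n = 12), a fall by 2.86 (exact p = 0.00065, adjusted p = 0.0017), and 12 of 12 SNx libraries lay below all controls. In SNx libraries the pair ran in opposite directions (r = -0.83, rho = -0.93, adjusted p = 0.0023 and 0.00027, permutation tests, n = 12), and r was -0.77 without SNx 1 and SNx 11. Klf4 minus Klf5 fell by 0.87 (exact adjusted p = 0.0017), with 11 of 12 SNx libraries below all controls. Inside SNx this pair rose and fell together (r = 0.78, rho = 0.87).

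In the AP-1 family, Fosl1 moved up relative to Fos and Junb relative to Jund. Fos minus Fosl1 fell by 2.38, from 5.91 ± 0.53 to 3.52 ± 0.91 log2 units (exact adjusted p = 0.0013, n = 5 and 12), although at the few control counts of Fosl1 this difference depends on the prior count. It was -3.67 with a prior count of 0.5 and -3.71 on the deposited values. Junb minus Jund rose by 0.60, from -1.37 ± 0.35 to -0.76 ± 0.31 (exact adjusted p = 0.0090, n = 5 and 12). It was 0.49 with SNx 1 to SNx 6 alone (exact adjusted p = 0.087).

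The difference between Hnf4a and Hnf4g did not move beyond its spread. It was 5.11 ± 0.14 in NoOp (SD, n = 5) and 5.24 ± 0.35 in SNx (SD, n = 12), a change of 0.13 (exact adjusted p = 0.53). Under the alternatives tried this change stayed between 0.0052 and 0.25. Across the SNx libraries Hnf4a and Hnf4g moved together (r = 0.93, rho = 0.95, adjusted p = 0.00024 and 0.00016, permutation tests, n = 12), with r = 0.89 without SNx 1 and SNx 10. Nr1h4 minus Nr1i2 changed by -0.25 (exact adjusted p = 0.26) and Myc minus Mycl by -0.09 (exact adjusted p = 0.78), neither past the threshold.

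**Figure D5:**
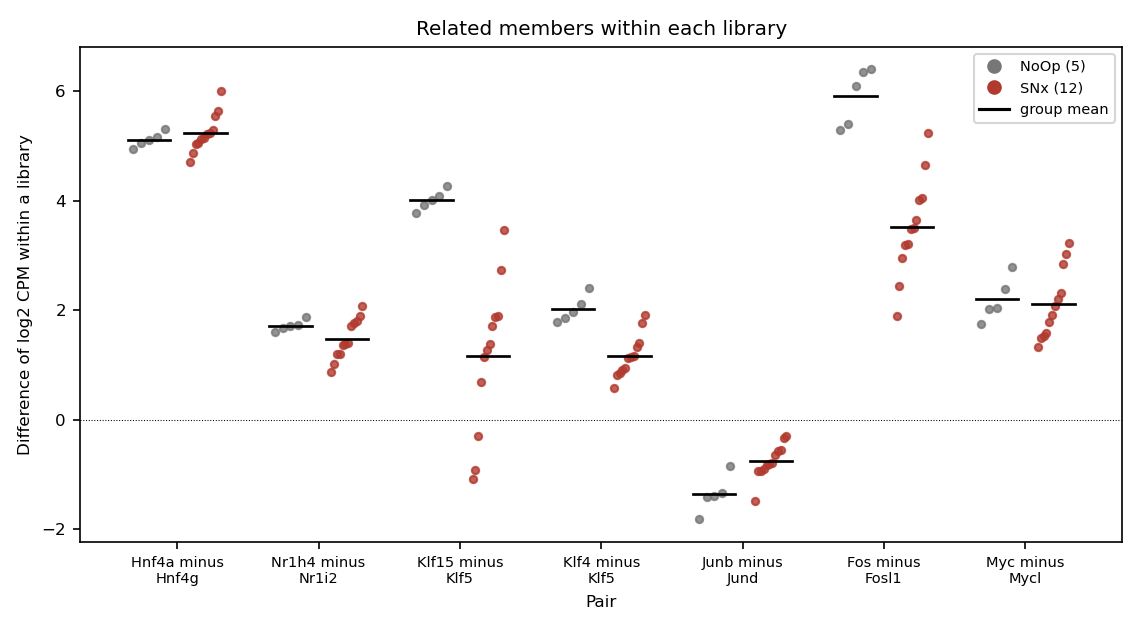
Difference of log2 CPM between related members within each of the 5 NoOp (grey) and 12 SNx (red) libraries, with group means as black lines. Klf15 minus Klf5 fell by 2.86 and Fos minus Fosl1 by 2.38 at a prior count of 2 (a change of -3.67 at 0.5), while Hnf4a minus Hnf4g lies at about the same height in both groups with a wider spread in SNx.

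Among 50 other transcription factors that the study lists, 33 were higher, 14 lower and 3 not called. This stands beside 93.6% called among all tested genes that study 1 lists. The median log2 fold change of the 50 was 1.0. Of the 50, 7 were listed by study 2 alone and so were chosen on this contrast. The leukocyte factors Irf8 and Spi1 rose by 1.97 and 1.67, and the interferon factor Irf1 by 1.55.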

How the data were processed

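The kidneys of 12 SNx and 5 NoOp rats were analysed, grouped by the treatment label. After rRNA depletion, stranded paired-end libraries were made. The authors mapped reads to Rn6 transcripts (Salmon is named in the submitters' processing notes), summarised them with tximport, and deposited estimated counts for each gene, all whole, so that rounding changed 0 values. The log2 values that the authors also deposited were made with limma's voom. Versions are not given in the sources used here, and tables of the whole series were not used. Totals of 19210434 to 43876369 counts set the precision, and intervals cover counting error only. No pair of libraries in a group was a duplicate (chi-square per degree of freedom at least 21.9).

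The test was edgeR 4.0.16 in R 4.3.3 (filterByExpr, TMM, quasi-likelihood, two-sided, Benjamini-Hochberg adjustment over 15438 genes, FDR < 0.05), with the SE taken as the log2 fold change over the root of F, and was checked on simulated counts. Relations used 100000 permutations and pairs all 6188 splits (Python 3.11.15, numpy 2.4.6, scipy 1.17.1, matplotlib 3.10.9). As alternatives, limma 3.58.1 was run on the deposited values and after voom, DESeq2 1.42.0 on the counts, and edgeR with RLE factors, with unscaled libraries, with robust dispersions, without a filter, with a minimum of 10 counts throughout, with SNx 1 to SNx 6 or SNx 7 to SNx 12, and leaving out each library. Pairs were also run with a prior count of 0.5. The members and gene lists were chosen with earlier results of these data known. Members are named except for some that are not reported here, though counts include them, and of each list at most 3 other genes, those with the smallest p-values. Symbols and chromosomes came from the study's lists, from which 2174 entries of study 1 and 5434 of study 2 were not used here.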

Additional observations from a re-analysis of the deposited data

How the results depend on the processing

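Across 27 alternatives, between 7317 and 9447 genes were called, between 13 and 17 of the members listed from study 1 were higher and 8 or 9 lower. The 13 came from requiring at least 10 counts in every library, which left fewer members tested. Leaving out single libraries gave 7914 to 9438 genes, 16 to 17 members higher, 8 to 9 lower, 4 to 4 pairs past the threshold and 24 to 30 of 66 relations. Under scaling by library size alone the median over all genes went from 0.02 to 0.23 on the log2 scale and the share of called genes that were higher from 52.2% to 74.6%, with 17 members higher and 8 lower. No member changed direction. Calls were lost for Crebrf in 16 of 27 alternatives (adjusted p 0.054 to 0.73), and the cause was not tested. Myc minus Mycl, which was not called, turned from -0.09 to 0.0213 with SNx 1 to SNx 6 alone and to 0.0614 without NoOp 1, and ranged from -0.199 to 0.0614 with single libraries left out. With SNx 1 to SNx 6 alone 3 pairs passed. Calls of relations were lost for Mycl with the matrix markers on the deposited values (adjusted p = 0.059, permutation test) and for Crebrf under library size alone (adjusted p = 0.12, permutation test). With single libraries left out, calls were also lost for Ets1 with the matrix markers (without SNx 1 or SNx 3, highest adjusted p of any alternative 0.062) and, with the proximal tubule markers, for Elf3 (SNx 11, 0.057), Foxp3 (SNx 1, 0.063), Nr1i2 (SNx 1, 4, 5, 10 or 11, 0.10) and Crebrf (SNx 1, 3, 5, 6, 7 or 11, 0.12), and for Mycl with the matrix markers (SNx 1, 3, 8, 9 or 11, 0.15), all in permutation tests. Fos minus Fosl1 was -3.67 with a prior count of 0.5 and -3.71 on the deposited values, against -2.38. No paired analysis was possible because each library is a different rat and the labels give no number shared between SNx and NoOp. Depth limits Fosl1, Pax5 and Foxp3, which had 5, 7 and 37 counts over all controls.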
